A study of Mus musculus with 26 samples.

Results

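Cell lines grown from mouse osteosarcoma were compared with primary osteosarcomas across all genes measured. Members were chosen by their labels: 4 arrays whose source is a cell line of this tumour (176, 179, 182 and 213), and 15 arrays titled as primary tumours (12, 29, 64, 66, 87, 94, 119, 176, 179, 182, 183, 188, 330, 331 and 353), which makes 19 of the 26 arrays of the series. The other 7 arrays, 3 of osteoblasts differentiated in culture and 4 of secondary tumours, entered the fit only to share its estimate of the spread. Before the fit they also counted in the floor, the intensity filter and the choice of probe set. The 4 secondary tumours carry the numbers 29, 64, 66 and 94, which are also numbers of primary tumours. The fit took all arrays as independent. The series is titled as a mouse model of this tumour, and its labels give no genotype, strain, age, sex, treatment, passage number or culture medium for either group. They do not say whether a line is a clone, or whether any tumour sample was pooled or freed of surrounding tissue. Lines 176, 179 and 182 carry the number of a primary tumour, line 213 carries that of none of the 15, and no label says that a line came from the tumour of its number. The labels also do not say that the samples of a group came from separate animals, so the p-values measure only the spread between these samples. The fit pooled that spread for each gene over all 26 arrays, so no p-value measures the spread among the 4 lines alone.

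Osteosarcoma is a malignant bone tumour whose cells make bone matrix, and it arises in the osteoblast lineage, where the transcription factors Runx2 and Sp7 drive the genes of collagen type I, alkaline phosphatase and bone sialoprotein. A primary tumour also holds blood vessels, macrophages, osteoclasts, marrow and muscle or skin of its surroundings. A cell line is a population that grows in medium on plastic without these cells, with serum and a stiff surface in their place. In bulk RNA, fewer cells of a type and less RNA per cell cannot be told apart.

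The hybridisation controls parted the arrays of the lines and tumours into sets, and the groups were unevenly spread over them. The ratio of the bacterial control bioB to bioC was 1.09 to 1.20 on the arrays of the 4 lines, 1.04 to 1.20 on those of 8 primary tumours (176, 179, 182, 183, 188, 330, 331 and 353, called set C with the lines) and 0.389 to 0.415 on those of the other 7 (set B). The Gapdh 5′ to 3′ ratio, which is lower in broken or incompletely copied RNA, was 1.04 to 1.08 in the lines, 0.909 to 1.03 in the primary tumours of set C and 0.656 to 0.845 in those of set B. Array medians were 44.4 to 48.2 intensity units in the lines and 50.4 to 58.8 in the primary tumours. Every result below was therefore also computed for the 4 lines against the 8 primary tumours of set C, and it is said where this ended the call of a gene named below.

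Several samples stood apart. The other 3 lines correlated with each other at 0.951 to 0.967 over all genes tested, and line 176 with them at 0.889 to 0.914. Xist, the RNA of the silenced X chromosome, was at 8.20 in line 176, with the Y-linked Eif2s3y and Uty at the floor, whereas primary tumour 176 had Xist at 5.62, Eif2s3y at 6.58 and Uty at 6.29. The pattern of the line thus differs from that of the tumour with its number. No line had Eif2s3y or Uty above the floor (0 of 4), while 7 of the 15 primary tumours had both. Primary tumour 330 had the lowest median correlation with the other primary tumours (0.863, against 0.873 to 0.931) and the highest with the lines (0.871, against 0.798 to 0.842). In primary tumours 183 and 188 skin and neutrophil genes were high: the keratin Krt5 was at 11.28 and 11.11, against 4.12 to 7.89 in the other 13, and the neutrophil protein S100a8 at 12.13 and 12.96, against 4.75 to 8.59. Results that rest on line 176 or on primary tumour 330 are given with and without them.

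Of 12887 genes tested, 1514 (11.7%) were called, which means an adjusted p below 0.05 and a fold of at least 2. In the lines 608 genes (4.72%) rose and 906 (7.03%) fell, relative to a median log2 difference of −0.03 over all genes. An unadjusted p below 0.05 was reached by 6024 of the 12887 genes, the background for such counts in the lists below. The 4 lines lay wholly outside the range of the 15 primary tumours for 1211 genes (9.4%), and 639 of these (4.96%) were called: 248 (1.92%) higher and 391 (3.03%) lower in the lines. Against the 8 primary tumours of set C alone, 1179 genes (9.15%) were called, of which 523 (4.06%) rose and 656 (5.09%) fell. The calls of 1038 genes held in both comparisons in the same direction, 476 were made only against the 15 tumours, 141 only against the 8, and 0 were opposite. Without line 176 there were 1680 calls (13%; 736 or 5.71% higher and 944 or 7.33% lower), 1359 of them shared with the 4 lines in the same direction. The split between directions depended on the processing. Of the calls above 40.2% were higher in the lines, of those after quantile normalization 50.6% (768 higher and 751 lower), and of those over every kept probe set 29.5% (1234 higher and 2946 lower).

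**Figure D1:**
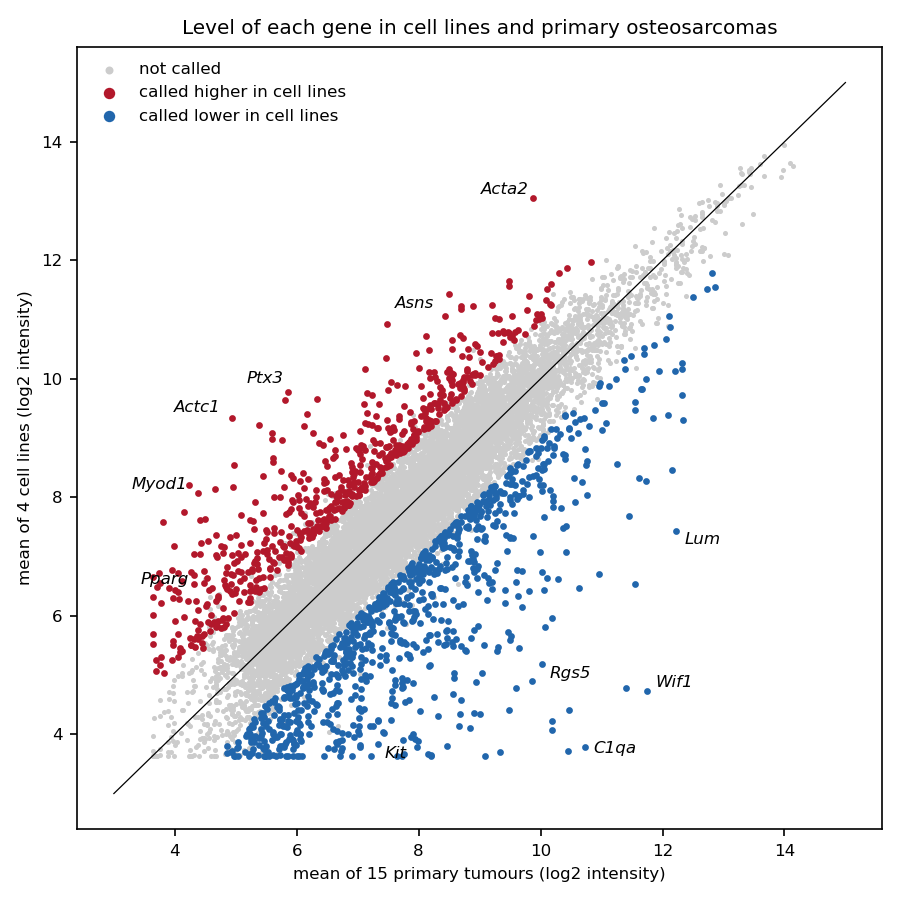
Mean log2 intensity of each of 12887 genes in the 4 cell lines (vertical axis) against the 15 primary osteosarcomas (horizontal axis), with a line of equality. Red points are the 608 genes called higher and blue points the 906 called lower in cell lines; the blue points reach farther from the line, down to Wif1 (log2 difference −7.01) and C1qa (−6.95), than the red ones.

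The 12 largest rises that kept the groups apart were led by genes of secreted and surface proteins. Levels are log2 intensities, given for lines 176, 179, 182 and 213 in that order, and 3.64 is the floor below which no level is read. Ptx3, a secreted pattern recognition protein of innate immunity, was at 9.50, 9.96, 9.52 and 10.14 in the lines and at 4.42 to 7.81 in the primary tumours (median 5.73). All 4 lines lay above the highest tumour, a rise of 15.2-fold (log2 difference 3.92, SE 0.49, adjusted p = 2.07e-06). The other kept probe set of Ptx3 differed by 1.00 and was not called. Ccn5, a matricellular protein of the CCN family, was at 7.71, 10.87, 10.38 and 9.64 in the lines and at 3.64 to 7.34 in the primary tumours (median 5.91), with line 176 the nearest to the tumours (log2 difference 3.84, SE 0.45, adjusted p = 8.45e-07). Slc1a3, a glutamate transporter, was at 7.02, 9.51, 9.71 and 9.69 in the lines and at 4.15 to 6.68 in the primary tumours (median 5.84), and line 176 was again the lowest line (log2 difference 3.39, SE 0.47, adjusted p = 8.5e-06). F3, tissue factor, the trigger of blood clotting, was at 7.35, 7.99, 7.46 and 9.91 in the lines and at 3.64 to 6.25 in the primary tumours (median 5.01), highest in line 213 (log2 difference 3.23, SE 0.42, adjusted p = 3.62e-06). The smooth muscle actin gene Acta2 reached 12.93, 13.13, 13.42 and 12.72 in the lines, close to the top of the scale, and lay at 8.13 to 12.32 in the primary tumours (median 9.90), where tumour 330 was the highest (log2 difference 3.18, SE 0.45, adjusted p = 1.11e-05).

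The other 7 of these 12 rises differed by 2.76 to 3.20. Eya4, a transcriptional coactivator and phosphatase, rose by 3.20, Rtl3, a retrotransposon-derived gene, by 3.06, and Cavin2, a caveolar coat protein, by 2.82. Pwwp3b, Abcg5, a sterol transporter subunit, Gm29538 and the phospholipid scramblase Plscr2 were near the floor in most primary tumours, with tumour medians of 3.77, 3.64, 3.64 and 3.64, so their differences of 3.19, 2.82, 2.80 and 2.76 may understate the change. Each of the 12 was also called against the tumours of set C and without line 176.

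Of the 12 largest falls that kept the groups apart, 11 were in genes known from immune cells, most of them from macrophages, and 1, the largest, was in a secreted inhibitor of Wnt signalling. That inhibitor, Wif1, was at 5.14, 3.64, 6.52 and 3.64 in the lines and at 7.38 to 12.86 in the primary tumours (median 12.08). Lines 179 and 213 lay at the floor, and tumour 330 was at 7.38, apart from the other 14 at 10.50 to 12.86 (log2 difference −7.01, SE 0.66, adjusted p = 3.08e-08). C1qa, a chain of the complement protein C1q that macrophages make, was at 3.64, 3.76, 4.09 and 3.64 in the lines and at 9.24 to 11.69 in the primary tumours (median 10.49), so that every tumour was more than 5 log2 units above every line (log2 difference −6.95, SE 0.34, adjusted p = 4.56e-13). Lyz1, a lysozyme, had 3.64, 5.03, 5.18 and 5.31 in the lines and 9.73 to 12.93 in the primary tumours (log2 difference −6.62, SE 0.44, adjusted p = 6.62e-11). Its near-identical copy Lyz2, the lysozyme of macrophages, differed by −5.02, and probes may not part the pair. Prg3, an eosinophil granule protein, was at the floor in 3 lines and at 6.72 in line 176, against 8.85 to 11.75 in the primary tumours (median 10.77) (log2 difference −6.05, SE 0.55, adjusted p = 1.64e-08). Ms4a6b, a membrane protein of leukocytes, changed by −5.63, and F13a1, the A chain of clotting factor XIII, made by macrophages, by −4.96. Fcgr3, a receptor for antibody, was at 7.46 to 10.32 in the primary tumours (median 8.86) and lay at the floor in every line, at least 43.5-fold lower in the lines (adjusted p = 1.69e-10). A group set wholly to the floor adds no spread to the fit, so the p-values of this and other such genes may be too small.

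**Figure D2:**
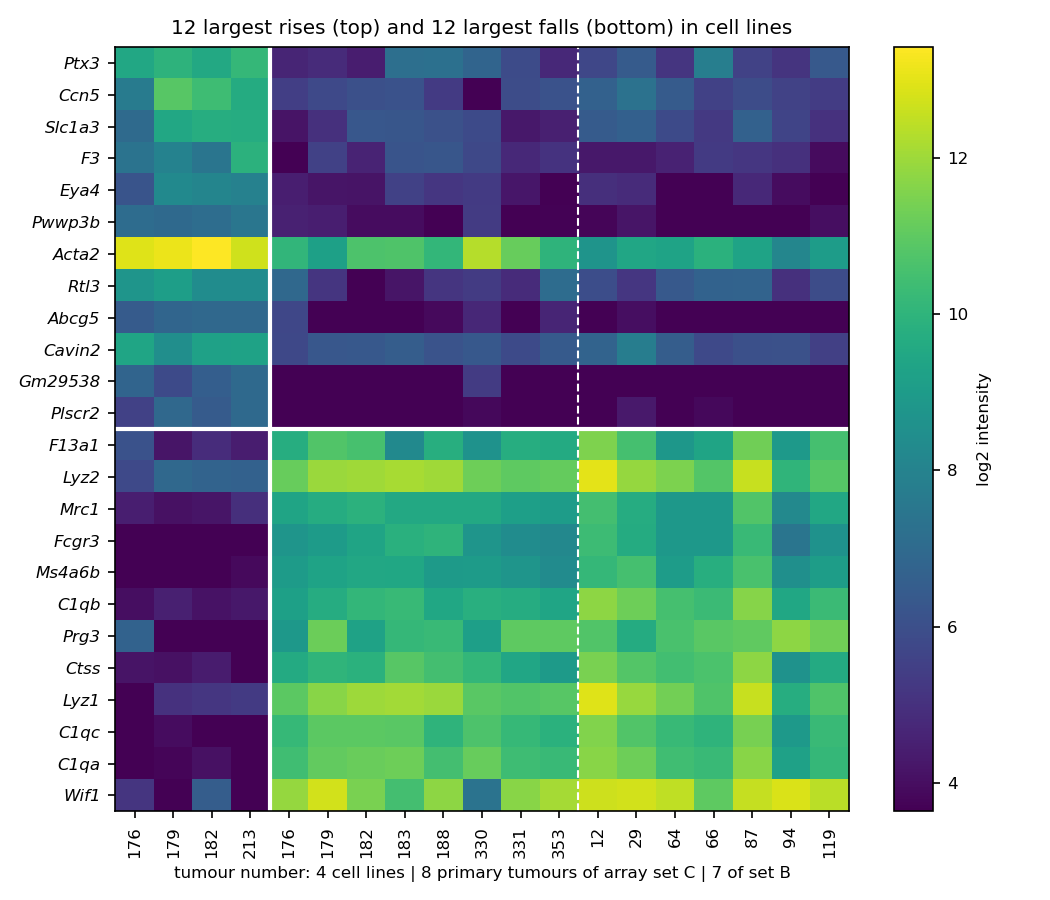
Log2 intensity (colour) of the 12 genes with the largest rise and the 12 with the largest fall in cell lines among called genes whose groups do not overlap, 1 column for each of the 4 cell lines (left), the 8 primary tumours of array set C and the 7 of set B. The 4 lines stand apart from all tumours for each gene; tumour 330 is nearest to the lines for Acta2 (12.32) and Wif1 (7.38).

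Genes known from macrophages fell in the lines without exception. All 20 macrophage markers were called lower and 0 higher (median −4.16), in set C as well (20 lower, median −4.18). Averaged over the list, levels were 5.15, 5.11, 5.02 and 4.96 in the lines and 7.84 to 10.01 in the primary tumours, and 2 of its genes were at the floor in all 4 lines. Csf1r, the receptor for the macrophage growth factor, was at 7.45, 6.17, 6.58 and 6.60 in the lines and at 10.17 to 12.24 in the primary tumours (median 10.62) (log2 difference −4.25, SE 0.35, adjusted p = 3.35e-09). The mannose receptor Mrc1 changed by −5.06, the protease Ctss by −6.12, the adaptor Tyrobp by −4.19 and the lysosomal protein Cd68 by −4.12. The smallest falls of the list were those of Adgre1, an adhesion receptor (−1.22), and Cx3cr1, a chemokine receptor (−1.37).

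Of 7 genes of MHC class II presentation and dendritic cells, 4 fell and 0 rose (median −2.83). Cd74, the invariant chain that guards the peptide groove, had 5.54, 5.09, 4.51 and 4.39 in the lines and 7.48 to 10.24 in the primary tumours (median 8.83), with no overlap (log2 difference −4.06, SE 0.48, adjusted p = 1.06e-06). The class II chain H2-Aa changed by −3.57, H2-Ab1 by −2.83 and H2-Eb1 by −3.02. Of the 4 kept probe sets of H2-Aa 1 ran the other way, and its differences ranged from −4.26 to 1.33. Kit, the receptor of stem cell factor on mast cells and blood progenitors, was at 3.64, 4.26, 3.64 and 4.003 in the lines and at 4.80 to 10.45 in the primary tumours (median 8.58) (log2 difference −4.11, SE 0.76, adjusted p = 0.000207). Pf4, a platelet chemokine also made by macrophages, changed by −3.29. Among 4 T and NK cell genes, 3 of B and plasma cells and 6 of nerve and Schwann cells, 0 were called by limma, with 2, 2 and 0 at an unadjusted p below 0.05. Of 7 neutrophil genes, S100a8 was at the floor in every line, against 4.75 to 12.96 in the primary tumours (median 6.04), at least 9.6-fold lower in the lines (adjusted p = 0.0202), and Prtn3, a granule protease, rose by 1.13. Neither was called within set C (adjusted p = 0.0735 and 0.0344), and Prtn3 was not called without line 176 (0.99). S100a8 also lost its call without line 213 (−3.26, adjusted p = 0.0507). Among 9 osteoclast genes, Ctsk, the collagen-cleaving protease that osteoclasts secrete, changed by −1.81 (lines 10.68, 10.14, 10.16 and 9.56, tumours 11.22 to 12.88), and it was well above the floor in the lines.

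**Figure D3:**
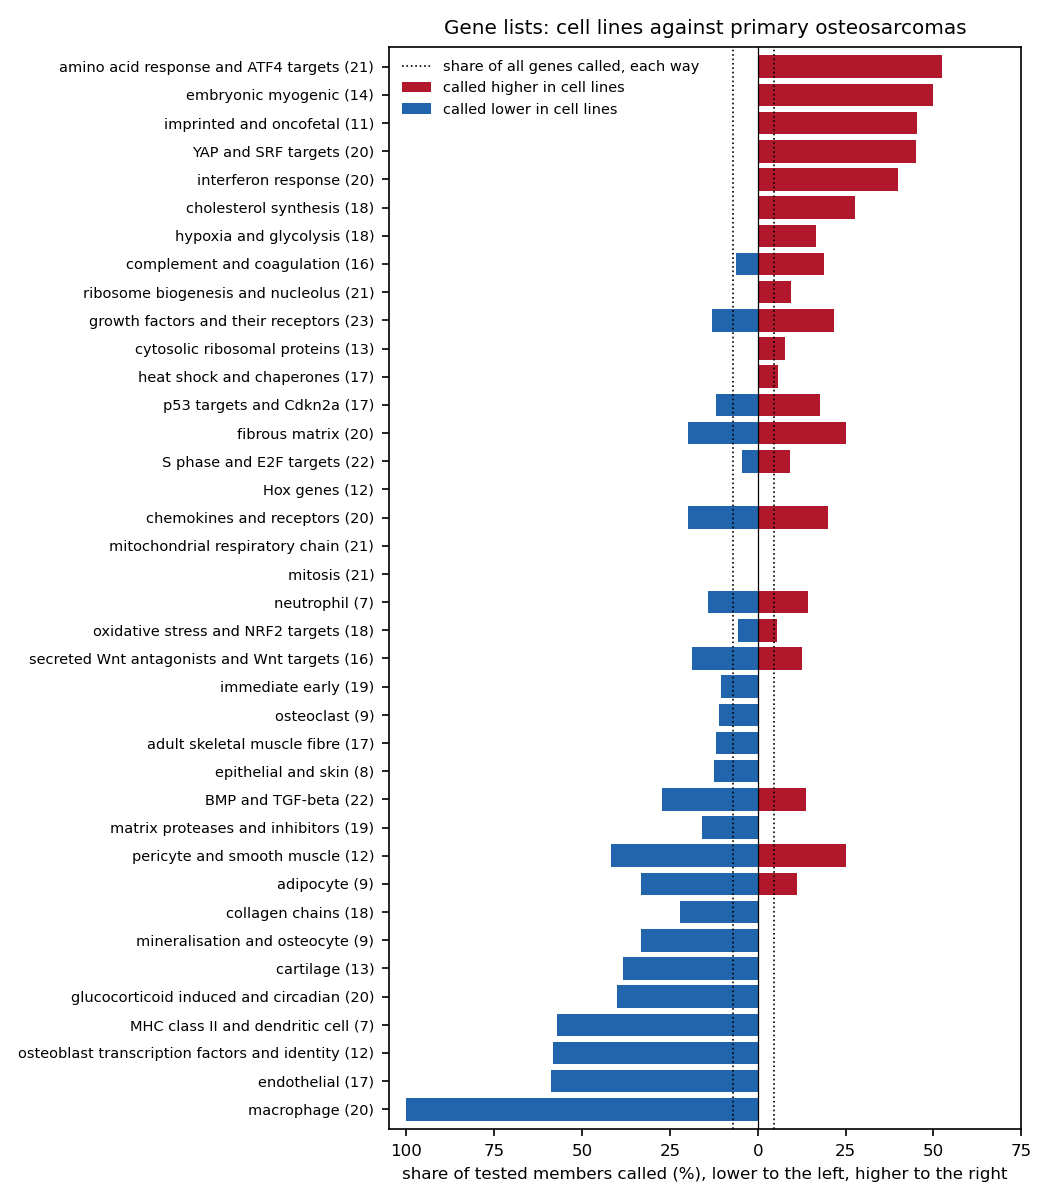
Share of the tested members of each gene list (number in brackets, lists of at least 7 genes) called higher (red, right) or lower (blue, left) in 4 cell lines than in 15 primary osteosarcomas. Dotted lines mark the shares over all genes, 4.72% higher and 7.03% lower; the macrophage list is called lower in full (20 of 20), and the list of ATF4 targets has the greatest share called higher (11 of 21).

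Vessel genes were low in every line. Of 17 endothelial genes 10 fell and 0 rose (median −1.59), and 9 fell in set C (median −1.18). Its mean level was 5.61, 5.67, 5.70 and 5.65 in the lines and 6.91 to 7.76 in the primary tumours. Cdh5, the cadherin that joins endothelial cells, was at 3.64, 3.64, 4.70 and 3.68 in the lines and at 7.02 to 8.78 in the primary tumours (median 7.80) (log2 difference −4.02, SE 0.30, adjusted p = 6.3e-10), although the other kept probe set of this gene differed by 0.32. Pecam1, an adhesion molecule of endothelium and leukocytes, was at or next to the floor in all 4 lines and at 5.64 to 7.66 in the primary tumours (median 6.30) (log2 difference −2.81, SE 0.31, adjusted p = 3.89e-07). Plvap, a diaphragm protein of capillaries, changed by −3.04, Esam by −3.03 and Kdr, the main VEGF receptor, by −2.59.

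The pericyte and smooth muscle list parted: 5 of its 12 genes fell and 3 rose. Its other 4 genes, Pdgfrb, Notch3, Myh11 and Des, were not called. The genes that fell included pericyte markers. Rgs5, a regulator of G-protein signalling, was at 5.20, 5.45, 4.99 and 5.13 in the lines and at 8.41 to 11.20 in the primary tumours (median 10.19) (log2 difference −4.83, SE 0.38, adjusted p = 1.35e-09). The subunits of the vascular ATP-sensitive potassium channel Abcc9 and Kcnj8 changed by −3.84 and −3.0003, Mcam by −1.92 and Cspg4 by −1.15. The genes that rose, Acta2, Tagln and Cnn1, encode proteins of the contractile actin apparatus. Cnn1, calponin, was at 6.72, 7.79, 8.40 and 8.12 in the lines and at 3.64 to 7.74 in the primary tumours (median 3.64), where most tumours lay at the floor and 1 reached the lines (log2 difference 3.61, SE 0.48, adjusted p = 5.1e-06). Tagln was at 9.83, 11.29, 11.60 and 11.01 in the lines and at 5.30 to 11.78 in the primary tumours (median 7.32). Tumour 330, at 11.78, was the only tumour in the range of the lines, the other 14 being at 5.30 to 8.66 (log2 difference 3.44, SE 0.65, adjusted p = 0.00024). Without tumour 330 the difference of Tagln was 3.75 and that of Acta2 3.35.

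These 3 genes are also among 20 targets of YAP, a transcriptional coactivator that answers to stiffness and spreading, and of SRF, a factor that actin dynamics control. Of the 20, 9 rose and 0 fell (median 0.81), and 8 rose both within set C and without line 176. The list mean was 10.06, 10.39, 10.63 and 10.32 in the lines, above all primary tumours (8.85 to 9.65). Ankrd1, a nuclear ankyrin repeat protein, was at 7.91, 9.35, 9.47 and 9.61 in the lines and at 3.85 to 8.66 in the primary tumours (median 5.65), with line 176 the only line within the range of the tumours (log2 difference 3.49, SE 0.60, adjusted p = 8.74e-05). The myosin light chain gene Myl9 rose by 2.33 (lines 10.66, 11.19, 11.73 and 11.35, tumours 6.91 to 11.03), Amotl2 by 1.57, the receptor kinase Axl by 1.56 and vinculin, Vcl, by 1.41 (lines 11.72, 11.57, 11.503 and 11.26, tumours 9.43 to 10.68). The call of Ajuba (1.02, adjusted p = 0.00111) was lost within set C and without line 176 (0.93 and 0.88). The CArG box, the sequence that SRF binds, was searched on both strands of RefSeq promoters (assembly GRCm38.p6), from 250 bases before to 50 after each gene start. It was found for 5 of the 17 members with a promoter, among them 2 of the 8 that rose. Over all 27025 genes with a promoter the share was 1.81%, and over all 32851 promoter windows 1.63%. A gene counted when any of its windows matched. Both risen members with a match are shown, Myl9 at chr2:156775214-156775513 and Vcl at chr14:20929148-20929447, each on the plus strand, 5′ to 3′, with the match in capitals. A match is a description of letters and not a binding site.
Myl9: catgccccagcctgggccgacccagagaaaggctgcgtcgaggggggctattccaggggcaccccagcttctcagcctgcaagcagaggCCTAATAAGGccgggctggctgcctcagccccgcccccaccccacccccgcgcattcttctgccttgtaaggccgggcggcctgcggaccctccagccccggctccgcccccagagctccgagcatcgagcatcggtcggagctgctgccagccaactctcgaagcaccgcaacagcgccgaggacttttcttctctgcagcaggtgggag
Vcl: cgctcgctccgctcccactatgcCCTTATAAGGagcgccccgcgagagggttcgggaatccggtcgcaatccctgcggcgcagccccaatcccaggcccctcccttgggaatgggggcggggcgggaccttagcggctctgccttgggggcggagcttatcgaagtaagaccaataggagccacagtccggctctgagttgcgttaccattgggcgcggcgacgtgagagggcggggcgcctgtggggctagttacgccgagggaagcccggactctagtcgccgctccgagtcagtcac

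**Figure D4:**
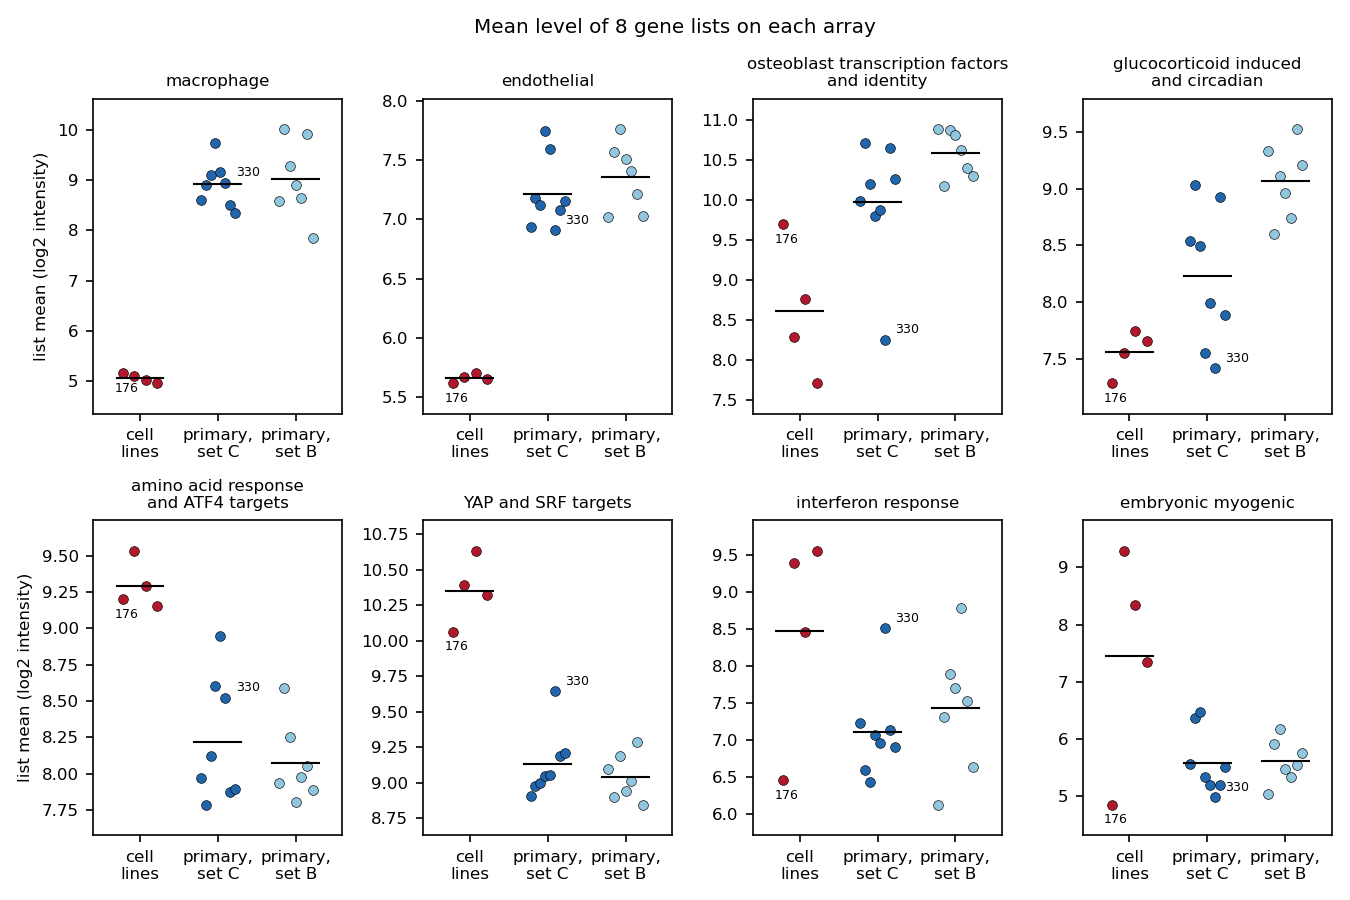
Mean log2 intensity of 8 gene lists on each array: 4 cell lines (red), 8 primary tumours of array set C (dark blue) and 7 of set B (light blue), 1 point an array, with bars at group means. Macrophage, endothelial, ATF4 and YAP and SRF lists part the lines from all tumours. For the other 4 lists line 176 or primary tumour 330, both labelled, lies with the other group or at its edge. For the interferon list line 182 (8.46) also lies within the range of the tumours (6.12 to 8.79).

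Of 12 genes of osteoblast identity 7 fell and 0 rose (median −1.67), to different depths in different lines. Only 2 fell within set C (median −1.01), and 6 did so there once tumour 330 was left out (median −1.20). The list mean was 9.69, 8.29, 8.77 and 7.71 in the lines and 8.26 to 10.88 in the primary tumours, where tumour 330 had the lowest value, 8.26, and the others 9.80 to 10.88. Sp7, the factor needed to form osteoblasts, was at 10.52, 6.97, 8.42 and 6.21 in the lines and at 6.86 to 10.99 in the primary tumours (median 10.47) (log2 difference −2.17, SE 0.56, adjusted p = 0.00392). Line 176 lay among the tumours, and tumour 330, at 6.86, among the lines. Alpl, tissue alkaline phosphatase, was at 11.16, 8.91, 10.40 and 7.09 in the lines and at 7.42 to 13.05 in the primary tumours (median 12.40) (log2 difference −2.69, SE 0.67, adjusted p = 0.0031). Ibsp, bone sialoprotein, was at 10.12, 8.002, 8.99 and 3.64 in the lines and at 4.73 to 13.04 in the primary tumours (median 11.85), with line 213 at the floor and tumour 330 at 4.73, apart from the other tumours at 10.56 to 13.04 (log2 difference −3.76, SE 1.06, adjusted p = 0.0075). None of the 3 was called within set C (adjusted p = 0.101, 0.105 and 0.099). Without tumour 330 in set C all 3 were, with differences of −2.38, −2.84 and −4.51. Ibsp was also not called without line 213 (−2.41).

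Pth1r and Dlx3 were called within set C as well. Pth1r, the receptor of parathyroid hormone, was at 9.24, 7.70, 8.72 and 7.40 in the lines and at 9.63 to 11.47 in the primary tumours (median 10.72), with no overlap (log2 difference −2.42, SE 0.31, adjusted p = 3.06e-06). Dlx3, a homeobox factor of bone and teeth, was at the floor in every line, against 3.91 to 6.85 in the primary tumours (median 6.16), at least 4.92-fold lower in the lines (adjusted p = 0.000137). The calls of Twist1 (−1.31) and Dlx5 (−1.10) were lost within set C (−1.03 and −0.87), and that of Dlx5 was made there once tumour 330 was left out (−1.0003). Alx1, a homeobox factor of the skeleton of the head, did not pass against all 15 tumours (−1.93, adjusted p = 0.0933) and was called without tumour 330 (−2.14, adjusted p = 0.0484). Col1a1, the main chain of bone collagen, was at 13.73, 13.26, 13.68 and 13.41 in the lines and at 13.88 to 14.11 in the primary tumours (median 13.97). It lay apart by −0.46 only (adjusted p = 0.00016), below the fold asked for, near the top of the array's range, and its other kept probe set differed by 0.42 in the opposite direction. Of 9 genes of mineralisation and osteocytes, the bone cells buried in matrix, 3 fell and 0 rose (median −0.69), and the same number fell within set C. Dmp1, a matrix phosphoprotein of osteocytes, was at 3.64, 4.32, 4.67 and 4.74 in the lines and at 4.39 to 11.29 in the primary tumours (median 8.93), with tumours 330 and 176 the lowest (log2 difference −4.34, SE 1.003, adjusted p = 0.00162). Smpd3, a sphingomyelinase needed for mineral, changed by −3.21 and Ifitm5, a membrane protein of osteoblasts, by −3.0004.

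Matrix genes changed in both directions. Of 18 collagen chains 4 fell and 0 rose (median −0.66): Col11a1 (lines 10.15, 10.42, 10.89 and 9.21, tumours 11.10 to 13.10, log2 difference −2.15, SE 0.31, adjusted p = 1.51e-05), Col24a1 (−2.02), Col16a1 (−1.74) and the basement membrane chain Col4a1 (−1.10). The call of Col4a1 rested on line 176, at 8.39 against 10.98 to 11.14 in the other lines, and without it the difference was −0.43. Within set C it was also not called (−0.89), and 3 chains fell. In the fibrous matrix list 5 of 20 genes rose and 4 fell (median 0.11), and within set C 4 rose and 3 fell. Lum, lumican, a proteoglycan that spaces collagen fibrils, was at 6.63, 7.23, 8.42 and 7.43 in the lines and at 9.49 to 13.54 in the primary tumours (median 12.81), with no overlap (log2 difference −4.80, SE 0.59, adjusted p = 1.73e-06). Dcn, decorin, of the same family, was at 8.09, 9.12, 10.86 and 10.86 in the lines, below all tumours at 10.94 to 13.54 (log2 difference −2.59). The other kept probe set of Dcn differed by −0.42 and was not called. Mfap5, a microfibril protein, was at 7.40, 11.18, 10.74 and 11.35 in the lines and at 4.77 to 8.45 in the primary tumours (median 7.35) (log2 difference 3.04, SE 0.58, adjusted p = 0.000251). Its level in line 176 lay within the tumours, and those of the other 3 above them. Ogn, osteoglycin, rose by 2.18, Thbs1 by 1.95 and Vcan by 1.12, while Tnc changed by −1.29.

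Among 19 matrix proteases and inhibitors 3 fell and 0 rose: Adamts4, an aggrecan-cleaving enzyme (−1.82), Mmp2 (−1.31) and its activator Mmp14 (−1.12). Mmp2 was not called within set C (−0.98), where 2 genes of the list fell and 1 rose. Of 13 cartilage genes 5 fell and 0 rose (median −0.77), and within set C 5 fell and 1 rose. Hapln1, which links aggrecan to hyaluronan, was at 4.03, 4.54, 4.45 and 3.92 in the lines and at 4.94 to 10.01 in the primary tumours (median 7.07) (log2 difference −3.10, SE 0.60, adjusted p = 0.00031). Aggrecan, Acan, changed by −2.48, Col11a2 by −2.47 and the lubricin gene Prg4 by −2.18. Of 9 adipocyte genes 3 fell and 1 rose. Pparg, the master regulator of fat cells, was at 7.46, 4.63, 5.82 and 7.38 in the lines and at the floor in all 15 primary tumours, at least 6.42-fold higher in the lines (adjusted p = 1.14e-07). The tumours, all set to the floor, added no spread to the fit, so this p-value may be too small. Pparg also passed the intensity filter without any of them. Car3, a carbonic anhydrase of fat and muscle, was at 5.997, 6.43, 8.09 and 5.38 in the lines and at 4.38 to 12.42 in the primary tumours (median 11.20) (log2 difference −4.15, SE 0.96, adjusted p = 0.00168), while Cebpa differed by −1.23 and Cd36, which carries fatty acids into cells, by −1.63. The call of Cd36 was lost without any single line of 176, 179, 182 and 213 (−1.70, −1.69, −1.67 and −1.46).

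Genes of ligands, secreted inhibitors and receptors changed in both directions. Among 16 secreted Wnt antagonists and Wnt targets, Sfrp1 and Sfrp2 rose and Wif1, Lef1 and Axin2 fell. The antagonist Sfrp2 was at 11.25, 9.98, 11.29 and 12.39 in the lines and at 6.56 to 10.59 in the primary tumours (median 8.65) (log2 difference 2.54, SE 0.58, adjusted p = 0.00138). Sfrp1 was at 7.82, 9.38, 8.51 and 11.81 in the lines and at 5.48 to 8.94 in the primary tumours (median 7.39), highest in line 213 (log2 difference 2.08, SE 0.60, adjusted p = 0.00821). Both are secreted binders of Wnt proteins like Wif1, which moved the other way. Axin2, a feedback inhibitor induced by Wnt signals, changed by −1.23, and Lef1, a transcription factor of the pathway, by −1.85. Lef1 was not called within set C (−1.18, adjusted p = 0.0971). Without line 213 the difference of Sfrp1 was 1.27 and not called.

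In the BMP and TGF-beta list 6 of 22 genes fell and 3 rose (median −0.50), and within set C 4 fell and 2 rose. The ligand Bmp2 was at 7.54, 5.42, 5.62 and 3.81 in the lines and at 7.70 to 11.18 in the primary tumours (median 9.49), with no overlap and the lowest value in line 213 (log2 difference −3.90, SE 0.45, adjusted p = 8.28e-07). Bambi, a decoy receptor, was at 8.93, 7.46, 7.86 and 7.06 in the lines and at 8.23 to 11.43 in the primary tumours (median 10.48) (log2 difference −2.50, SE 0.42, adjusted p = 6.52e-05). The ligand Tgfb1 changed by −2.03 and Gdf10 by −2.49. Follistatin, Fst, which binds activins, rose by 1.68, and Ltbp2, a matrix protein of the latent TGF-beta binding family, by 1.98. Of 23 genes of growth factors and their receptors 5 rose and 3 fell, and within set C 3 rose and 2 fell. The HGF receptor Met was at 6.999, 8.06, 8.09 and 8.85 in the lines and at 4.42 to 6.90 in the primary tumours (median 5.52) (log2 difference 2.37, SE 0.45, adjusted p = 0.000269), and the lymphatic growth factor Vegfc at 7.81, 6.87, 6.54 and 7.43 in the lines and 3.64 to 6.27 in the primary tumours (log2 difference 2.35, SE 0.38, adjusted p = 5.12e-05). Neither overlapped. Fgfr3, a brake on bone growth, changed by −2.85, Pdgfa by −1.91 and Fgfr2 by −1.46, while Fgf7 rose by 1.69. Fgfr2 was not called within set C (−1.41). Igfbp2, an IGF binding protein, differed by 2.08 (adjusted p = 0.0246), by 2.95 without line 176 and by 1.47 in set C, where it was not called. Its call was also lost without line 179, 182 or 213 (1.75, 1.76 and 1.85). Igfbp3, which had among the widest spreads between lines, was at 3.67, 11.22, 9.06 and 10.57 in the lines and at 8.89 to 11.001 in the primary tumours (median 9.97). Its difference of −1.23 did not pass (adjusted p = 0.19) and was 0.42 without line 176, while without line 179 it was called (−2.09, adjusted p = 0.0356).

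Genes of embryonic muscle were high in 3 of the 4 lines. Myoblasts commit through the transcription factors Myod1 and Myog, then fuse and make the first contractile proteins. Of 14 such genes 7 rose and 0 fell (median 2.26), with the same counts in set C and 10 higher without line 176 (median 3.37). With the tumour number as a fixed block 3 rose and 1 fell, and Myod1, Myog and Chrna1 were not called. That fit compares only lines 176, 179 and 182 with the tumours of their number. Myod1 was at 3.64, 9.40, 9.58 and 9.69 in the lines and at 3.64 to 5.36 in the primary tumours (median 4.24). Lines 179, 182 and 213 stood more than 4 log2 units above the highest tumour, and line 176 at the floor (log2 difference 3.70, SE 0.64, adjusted p = 9.25e-05). Myog was at 3.90, 10.82, 10.31 and 9.13 in the lines and at 4.48 to 5.51 in the primary tumours (median 4.90) (log2 difference 3.57, SE 0.64, adjusted p = 0.000142). Chrna1, the acetylcholine receptor subunit of muscle, was at 5.25, 11.59, 11.0002 and 10.83 in the lines and at 5.69 to 7.39 in the primary tumours (median 6.29) (log2 difference 3.33, SE 0.62, adjusted p = 0.000227). For each of the 3 genes line 176 was at or below the lowest tumour. Their SEs pool the spread of all 26 arrays and do not give the spread among the 4 lines.

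The fusion genes Mymk and Mymx rose by 3.14 and 3.02, the troponin Tnnc1 by 2.98 and embryonic myosin, Myh3, by 3.76. Myh3 differed among the positive lines too (3.64, 10.82, 9.78 and 6.07). The cardiac and embryonic actin Actc1 had the widest spread among the lines of any gene, 4.44, 12.15, 11.57 and 9.21, and lay at 4.19 to 6.31 in the primary tumours (median 4.79) (log2 difference 4.40, SE 0.73, adjusted p = 6.19e-05). Over the embryonic list the mean was 4.86, 9.28, 8.34 and 7.35 in the lines and 4.99 to 6.48 in the primary tumours. The mean over 17 genes of adult muscle fibres was 5.09, 8.43, 7.32 and 6.68 in the lines, the same order, and 4.89 to 10.58 in the primary tumours, a range that holds all 4 lines. Of these 17, 0 rose and 2 fell, Myh2 (−4.52), an adult fast myosin at 4.13, 4.16, 4.14 and 4.14 in the lines and 4.48 to 12.23 in the tumours, and Casq1 (−1.48), whose call was lost within set C (−1.26). With the tumour number as a fixed block 7 of the 17 fell and 0 rose. The fast troponin Tnnc2 was at 3.64, 11.56, 10.002 and 8.25 in the lines and at 3.64 to 11.74 in the primary tumours (median 8.21), so that the groups overlapped in full (log2 difference 0.40, adjusted p = 0.839).

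**Figure D5:**
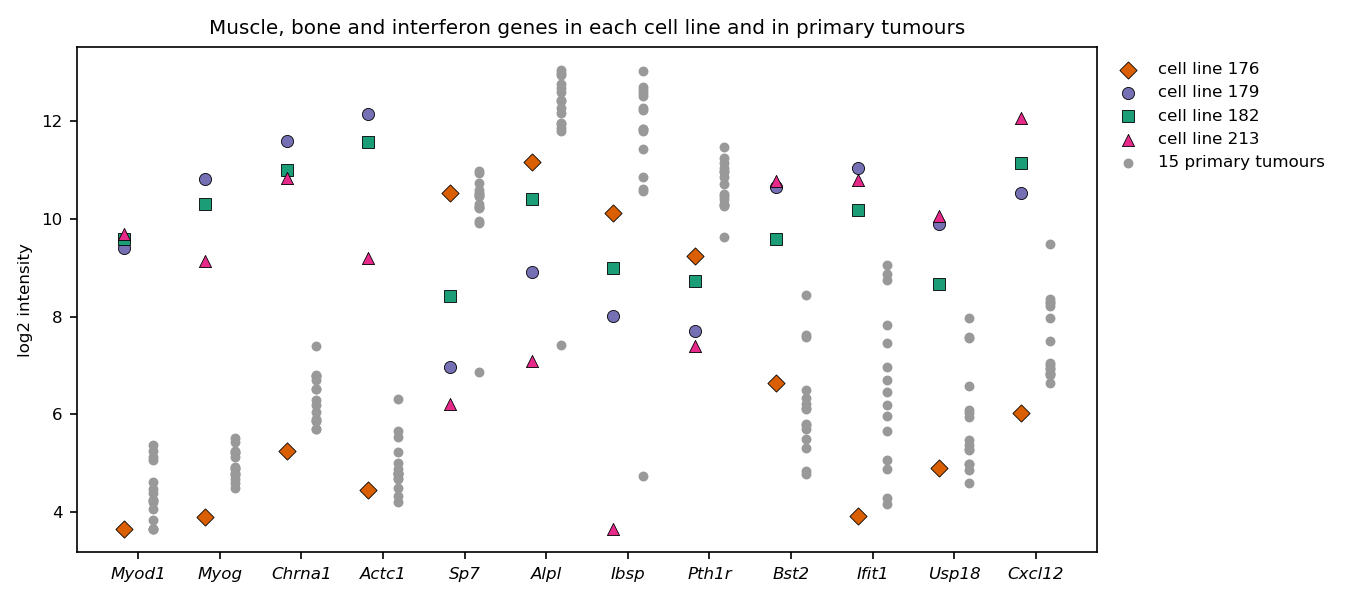
Log2 intensity of 4 muscle, 4 bone and 3 interferon-induced genes and of the chemokine Cxcl12 in each cell line (coloured symbols, left of each pair) and in 15 primary tumours (grey points, right). Line 176 (orange diamonds) lies at or near the bottom for the muscle, interferon and chemokine genes except Bst2 and at the top of the lines for Sp7, Alpl, Ibsp and Pth1r; the single low tumour for Sp7, Alpl and Ibsp is number 330.

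Of 11 imprinted and oncofetal genes, many of them most active before birth, 5 rose and 0 fell (median 1.28), 4 within set C and 6 without line 176. Grb10, an imprinted adaptor that restrains insulin signalling, was at 7.51, 11.55, 11.31 and 11.38 in the lines and at 6.86 to 9.43 in the primary tumours (median 7.72), with line 176 among the tumours (log2 difference 2.48, SE 0.49, adjusted p = 0.000351). Hmga2, a chromatin protein of embryonic cells, was at 7.66, 8.57, 9.12 and 8.75 in the lines and at 5.69 to 9.20 in the primary tumours (median 6.10) (log2 difference 2.03, SE 0.46, adjusted p = 0.00132). Ndn, necdin, rose by 1.69 in lines at 8.84, 8.78, 8.90 and 8.37, line 176 included, and Dlk1, a Notch ligand homologue, by 1.67. The long RNA Meg3 was at 5.63, 9.45, 10.19 and 11.42 in the lines and at 6.38 to 10.31 in the primary tumours (median 7.33). Its call (log2 difference 1.84, SE 0.67, adjusted p = 0.033) was lost within set C (1.76), and 2 of its 8 kept probe sets ran the other way. It was also lost without line 179, 182 or 213 (1.75, 1.497 and 1.09), while without line 176 the difference was 3.02.

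The level of interferon-induced genes was also higher in lines 179, 182 and 213 than in line 176. Interferons signal through STAT factors to genes with an antiviral role. Of 20 such genes 8 rose and 0 fell (median 1.16), 6 rose within set C (median 1.46) and 14 without line 176 (median 1.96). The list mean was 6.45, 9.40, 8.46 and 9.56 in the lines and 6.12 to 8.79 in the primary tumours. Line 176 lay in the lower part of the tumours' range and line 182 in its upper part, while lines 179 and 213 lay above it. Bst2, tetherin, which holds budding virus at the cell surface, was at 6.63, 10.65, 9.59 and 10.78 in the lines and at 4.78 to 8.43 in the primary tumours (median 6.11) (log2 difference 3.24, SE 0.62, adjusted p = 0.000274). Usp18, which removes the ubiquitin-like Isg15, was at 4.90, 9.89, 8.66 and 10.06 in the lines and at 4.59 to 7.98 in the primary tumours (median 5.46) (log2 difference 2.48, SE 0.69, adjusted p = 0.00682). Ifit1, a binder of foreign RNA, was at 3.92, 11.05, 10.17 and 10.80 in the lines and at 4.16 to 9.06 in the primary tumours (median 6.44). It was called with all 4 lines (log2 difference 2.43, SE 0.96, adjusted p = 0.0492), not within set C (adjusted p = 0.104), and differed by 4.12 without line 176. Ifi27l2a showed the same order of lines, 3.64, 10.41, 9.41 and 11.23, against 5.80 to 10.004 in the primary tumours (median 8.23), and did not pass with all 4 (0.56, adjusted p = 0.653), while without line 176 it was called (2.24, adjusted p = 0.0161). Ifit3 rose by 1.83, Irgm1 by 1.63 and Ifi202b by 1.61. Calls of Gbp2 (1.46) and Iigp1 (1.71) were lost within set C. Usp18 was not called without line 179 or 213 (1.98 and 1.92). Ifit1 was not called without line 179, 182 or 213 (1.74, 2.04 and 1.83). Nor was it called without any single one of primary tumours 12, 87, 94, 119, 176, 179, 182, 183, 188 and 353 (2.26 to 2.46).

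The core of the interferon-stimulated response element was searched on both strands as a pair of GAAA repeats with any 2 bases (NN) between them, in the same promoter windows. It was found for 10 of the 16 members with a promoter, 5 of the 6 that rose and 5 of the other 10. The share was 3.99% over all genes with a promoter and 3.44% over all windows. Bst2 (chr8:71537423-71537722, minus strand) and Ifit1 (chr19:34640639-34640938, plus strand) are shown because they are risen members with a match. In Bst2 2 matches overlap, and in Ifit1 the 2 matches stand in capitals as the reverse complement.
Bst2: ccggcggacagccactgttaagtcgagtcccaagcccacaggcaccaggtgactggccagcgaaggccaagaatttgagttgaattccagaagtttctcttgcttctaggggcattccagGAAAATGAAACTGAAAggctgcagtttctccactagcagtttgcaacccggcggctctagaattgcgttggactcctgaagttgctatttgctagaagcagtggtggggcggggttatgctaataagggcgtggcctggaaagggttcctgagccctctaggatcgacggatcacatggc
Ifit1: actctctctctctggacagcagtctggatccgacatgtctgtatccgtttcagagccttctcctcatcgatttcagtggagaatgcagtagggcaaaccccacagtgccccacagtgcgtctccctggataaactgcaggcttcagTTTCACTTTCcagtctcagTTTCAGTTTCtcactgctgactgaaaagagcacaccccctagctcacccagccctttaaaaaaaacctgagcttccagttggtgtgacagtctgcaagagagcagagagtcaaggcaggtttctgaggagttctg

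Chemokines changed in both directions, 4 of 20 higher and 4 lower, and within set C 1 higher and 6 lower. Cxcl12, which holds blood progenitors in marrow, was at 6.02, 10.52, 11.15 and 12.06 in the lines and at 6.64 to 9.49 in the primary tumours (median 7.05). Lines 179, 182 and 213 exceeded every tumour and line 176 lay below all (log2 difference 2.40, SE 0.71, adjusted p = 0.00988). The call was lost within set C (adjusted p = 0.0755) and kept without line 176 (3.70). It was also lost without line 182 or 213 (1.99 and 1.69). The macrophage growth factor Csf1 rose by 1.66, and the monocyte attractants Ccl7 and Ccl2 by 1.91 and 1.51, both not called within set C (1.504 and 1.01). The chemokine receptor Ccr1 changed by −2.72, Ccl8 by −1.66 and Ccl9 by −1.50. Ccl6 was at the floor in every line, against 3.64 to 8.90 in the primary tumours (median 5.70), of which the lowest was at the floor too. Its difference of −2.37 (adjusted p = 0.00197) is from a line level set to the floor and may understate the fall. With the floor at the 40th percentile it was not called. In the complement and coagulation list F3, C2 (1.49) and Thbd (1.77) rose and F13a1 fell, of 16. Thbd, thrombomodulin, was not called within set C or without line 176 (1.38 and 1.79). Its call was lost without line 182 as well (1.46).

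Among the metabolic lists the amino acid response had the most calls. ATF4 is a transcription factor that cells make when amino acids run short or unfolded protein builds up, and its targets import and make amino acids. Of 21 such genes 11 rose and 0 fell (median 1.11), with the same counts in set C (median 1.10) and 12 higher without line 176. The list mean was 9.20, 9.53, 9.29 and 9.15 in the lines, above all primary tumours (7.79 to 8.95). Asns, asparagine synthetase, was at 11.37, 11.22, 10.85 and 10.80 in the lines and at 7.23 to 10.57 in the primary tumours (median 8.23), with no overlap (log2 difference 2.63, SE 0.47, adjusted p = 0.000136). Psat1, an enzyme of serine synthesis, was at 10.34, 10.62, 10.39 and 10.56 in the lines and at 6.75 to 9.60 in the primary tumours (median 8.03) (log2 difference 2.32, SE 0.45, adjusted p = 0.000301). Chac1, which degrades glutathione, was at 10.18, 9.78, 9.73 and 9.19 in the lines and at 6.21 to 9.24 in the primary tumours (median 6.92), with only the highest tumour reaching the lowest line (log2 difference 2.48, SE 0.40, adjusted p = 4.22e-05). The amino acid transporter Slc7a5 rose by 2.18, Trib3 by 2.11, Ddit3 by 1.94 and the serine and folate enzymes Psph, Mthfd2, Shmt2 and Phgdh by 1.56, 1.45, 1.34 and 1.11. Phgdh was not called within set C (0.94). Cth, which makes cysteine, rose by 2.71, and here line 176, at 5.18, lay within the tumours and the others at 7.62 to 8.19.

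The element that ATF4 binds with C/EBP partners was searched as TGATGNAA on both strands. It was found for 7 of the 18 members with a promoter, 3 of the 9 that rose and 4 of the other 9. The share was 4.51% over all genes with a promoter and 3.97% over all windows. The promoters of Asns (chr6:7693160-7693459, minus strand) and Chac1 (chr2:119350992-119351291, plus strand) are shown as the risen members described above. In Chac1 the capitals are the reverse complement of the element.
Asns: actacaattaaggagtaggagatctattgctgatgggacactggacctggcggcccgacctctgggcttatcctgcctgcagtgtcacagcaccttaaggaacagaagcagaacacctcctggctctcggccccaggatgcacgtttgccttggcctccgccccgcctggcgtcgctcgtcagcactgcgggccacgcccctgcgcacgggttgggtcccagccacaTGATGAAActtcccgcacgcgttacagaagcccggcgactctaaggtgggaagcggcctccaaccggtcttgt
Chac1: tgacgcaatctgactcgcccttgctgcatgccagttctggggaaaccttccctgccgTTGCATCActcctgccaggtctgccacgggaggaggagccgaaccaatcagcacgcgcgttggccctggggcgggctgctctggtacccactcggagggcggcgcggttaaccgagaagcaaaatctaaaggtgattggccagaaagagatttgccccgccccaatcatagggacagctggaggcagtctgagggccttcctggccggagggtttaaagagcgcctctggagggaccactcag

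In the cholesterol synthesis list 5 of 18 genes rose and 0 fell (median 0.56). Only 2 rose in set C, and 4 there without tumour 330. Idi1 was at 9.25, 9.31, 9.05 and 8.84 in the lines and at 6.42 to 8.81 in the primary tumours (median 7.47), with no overlap (log2 difference 1.57, SE 0.34, adjusted p = 0.001). Fdft1, squalene synthase, rose by 1.78, though 2 of its 4 kept probe sets ran lower, to −1.61 at the lowest. Fdps (1.87) and Mvk (1.41) were not called in set C. Of 18 genes of hypoxia and glycolysis 3 rose and 0 fell: the oxidase Ero1a (1.52), the glycolytic enzyme Pfkl (1.34) and Adm, adrenomedullin (1.17), the last not in set C (1.25). Of the 3 kept probe sets of Pfkl 1 ran the other way (−0.22), and with the mean of probe sets its call was lost (0.79). Adm also lost its call without line 179 or 213 (1.12 and 0.64). Hmox1, heme oxygenase, rose by 1.68 (lines 10.29, 10.20, 10.22 and 9.97, tumours 7.74 to 9.96), and it was the only one of 18 NRF2 and oxidative stress genes to rise. With the tumour number as a fixed block 4 of the 18 rose. In the same list 1 gene fell, Txnip, an inhibitor of thioredoxin, at 10.60, 6.58, 9.83 and 8.33 in the lines and 9.33 to 10.81 in the primary tumours (median 9.75) (log2 difference −1.17, SE 0.44, adjusted p = 0.0371). It was called neither within set C (−1.13) nor without line 179 or 213 (−0.42 and −1.002), and differed by −1.76 without line 176. Among 17 chaperones only Hspe1 rose (1.20). The nucleolar protein Npm1 rose by 1.44 (lines 11.90, 11.97, 11.75 and 11.88, tumours 9.21 to 11.48) and Utp20 by 1.28, the 2 called of 21 genes of ribosome biogenesis (median 0.39). Of 13 ribosomal protein genes 1 was called, Rps6 (1.17), whose other kept probe set differed by −0.12. Over all genes 4.72% rose, so 1 rise in the oxidative stress, chaperone or ribosomal protein list is near that share. Of 21 respiratory chain genes 0 were called by limma (median 0.16), with 5 at an unadjusted p below 0.05.

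Few genes of the cell cycle were called. Of 21 mitosis genes 0 were called by limma (median 0.00), with 3 at an unadjusted p below 0.05. Their mean was 7.88, 8.67, 8.29 and 8.82 in the lines, within the primary tumours (7.45 to 9.43), and the proliferation marker Mki67 was at 7.65, 9.05, 8.60 and 8.82 in the lines and at 8.27 to 10.15 in the primary tumours (median 9.0002) (log2 difference −0.58, adjusted p = 0.125). Of 22 S phase genes (median 0.41) 18 had a positive difference and 11 an unadjusted p below 0.05. Over all genes 6024 of 12887 were below it, so the 11 lie near the share of all genes. Of these 22, 2 rose, the replication licensing factor Cdc6 (1.40) and the transcription factor E2f2 (1.15), and 1 fell, cyclin E1, Ccne1 (−1.10, with its other kept probe set at 0.17). E2f2 was not called without line 179, 182 or 213 (0.79, 1.09 and 1.23), nor Ccne1 without line 213 (−0.75). Cdkn2a, which encodes the tumour suppressors p16 and Arf, was at 10.15, 9.99, 10.38 and 9.80 in the lines and at 7.79 to 10.36 in the primary tumours (median 8.97). Against all 15 tumours it was not called (log2 difference 0.91, SE 0.38, adjusted p = 0.061), and against the 8 of set C it rose by 1.59 (adjusted p = 0.00103). Rb1, the retinoblastoma gene, was at 6.41, 8.68, 7.61 and 6.83 in the lines and at 6.63 to 8.62 in the primary tumours (median 7.61), and did not pass (−0.24, adjusted p = 0.576).

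A list of 17 genes held targets of p53, the stress-activated tumour suppressor, together with Cdkn2a and Rb1. Of it 3 rose and 2 fell, all of them p53 targets, and within set C 3 rose, Cdkn2a among them, and 0 fell. Gadd45a, a growth arrest gene, was at 7.004, 9.09, 7.51 and 8.30 in the lines and at 4.43 to 8.22 in the primary tumours (median 6.13) (log2 difference 1.82, SE 0.43, adjusted p = 0.00206). Plk2 rose by 1.22, and the death receptor Fas by 1.36, with line 213 alone at 7.92. Trp53inp1 changed by −2.23 and Perp, a desmosome protein of skin, by −2.99. Fas, Trp53inp1 and Perp were not called in set C (1.14, −1.51 and −3.03), and Perp was at 10.52 in the tumour where it was highest. Without line 213 Fas differed by 0.68 and was not called. Cdkn1a, the cell cycle inhibitor p21, was at 8.37, 11.36, 10.52 and 9.61 in the lines and at 7.35 to 10.55 in the primary tumours (median 9.55), and did not pass (0.37, adjusted p = 0.563). Myc was at 8.32, 7.66, 8.32 and 8.40 in the lines and at 7.39 to 8.39 in the primary tumours (median 7.82) (0.32, adjusted p = 0.191).

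Of 20 genes of the circadian clock or induced by glucocorticoid hormones 8 fell and 0 rose (median −0.90), but 3 fell within set C (median −0.51) and 6 there without tumour 330. Their mean level was 7.29, 7.55, 7.75 and 7.66 in the lines and 7.42 to 9.52 in the primary tumours, with the higher values in set B. Zbtb16, a zinc finger repressor, was at 5.26, 5.59, 5.73 and 5.03 in the lines and at 5.66 to 10.79 in the primary tumours (median 9.57) (log2 difference −3.38, SE 0.68, adjusted p = 0.000468). Hlf, a clock output factor, was at 5.06, 4.45, 4.31 and 4.38 in the lines and at 5.30 to 9.60 in the primary tumours (median 7.81), with no overlap (log2 difference −3.23, SE 0.56, adjusted p = 0.000105). The clock gene Per1 changed by −1.72, and these 3 were called in set C as well. Tsc22d3, GILZ, changed by −2.73, in set C by −1.91 without a call and by −2.20 there without tumour 330. The chaperone Fkbp5 (−1.65) and the clock genes Nr1d1 (−1.37) and Clock (−1.22) were not called in set C. Of 19 immediate early genes 2 fell, Egr3 (−1.25, with its other kept probe set at 0.69) and Dusp1 (−1.19, −0.84 and not called in set C). Nr1d1 was not called without line 176 (−1.13), nor Dusp1 without line 176 or 213 (−1.06 and −1.17). Of 12 Hox genes 0 were called by limma, with 2 at an unadjusted p below 0.05.

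The labels of 1 array of set B, number 66, disagree: its title names a cell line and its source tumour tissue that came from one. It was kept with the secondary tumours, and what it holds is not settled by its labels. Its macrophage list mean was 8.06, against 5.15, 5.11, 5.02 and 4.96 in the 4 lines, and its endothelial mean 7.17, against 5.61, 5.67, 5.70 and 5.65. Both lay within the range of the primary tumours. Its osteoblast identity mean was 10.37, above all 4 lines, its ATF4 mean 7.98 and its YAP and SRF mean 8.81, both below all 4. With 1 sample there is no test.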

How the data were processed

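The deposited table holds 1 intensity a probe set and array on a linear scale, for 45101 probe sets, as the values show. The labels' protocols give Trizol extraction, priming at the poly(A) end, copying by T7 polymerase and a biotin label. How the authors summarised, corrected and scaled the intensities is not given in the sources used here.

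Lower intensities were set to the 20th percentile of the table, the floor (12.5, or 3.64 on the log2 scale), and log2 was taken without further scaling. Probe sets above the median of all values (52.6) on at least 3 of 26 arrays were kept, 27308 without the 64 controls. Names came from the platform annotation, updated through RefSeq's GRCm38.p6 table: 34958 probe sets had 1 symbol, 932 several and 9211 none. The kept probe set with the highest mean stood for its gene, which gave 12887 genes. Of 66 named genes with several kept probe sets, all ran one way for 57.

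Groups came from the labels. limma 3.58.1 in R 4.3.3 (lmFit and eBayes) was fitted to all 26 arrays with a mean a group, for cell lines minus primary tumours. p-values got the Benjamini-Hochberg adjustment across the 12887 genes, a gene was called at an adjusted p below 0.05 and a fold of at least 2, and errors are moderated standard errors (SE). The number of arrays limits the precision, and the code was tested on simulated data.

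The comparison and the 44 gene lists (16 of cell type markers and 28 others, 755 genes of which 682 were named on the array and 623 tested) were chosen with earlier results of these data known. Lists are described by counts and medians, with no test. Named genes are the 12 largest rises and 12 largest falls without overlap between groups, up to 4 called members of each list with the largest differences, 13 bone and cell cycle genes of which Trp53, Runx2, Bglap and Spp1 were not analysed here, and the 5 genes with the largest SD among the lines. Further called list members are named with their difference, and were chosen after their values were seen.

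Alternatives changed the floor, filter, scaling, probe set rule, arrays in the fit, array set and tumour number as a block, and left out each line and primary tumour in turn. Leaving out tumour 330 within set C, or with line 176, was added after the data were seen. Deviations of same-numbered lines and tumours from their group means correlated at 0.035, 0.081 and 0.039 for numbers 176, 179 and 182. The main fit did not take the numbers as pairs. With the tumour number as a random block the consensus correlation within a number was 0.352. That block also joins secondary tumours to the primary tumours of their number.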

Additional observations from a re-analysis of the deposited data

Results flagged for a closer look

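In a group of 4 arrays, 1 value far from the other 3 was looked for by Dixon's test of the gap over the range, for each of 126 named genes and each of 44 list means of the cell lines. Chance marks about 1 in 20 such groups. It was passed by 19 genes and 3 list means, and 13 of the genes had line 176 as the odd array.

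Line 176 was the low array for Slc1a3 (7.02, against 9.51 to 9.71 in the other lines), Eya4 (6.17, against 7.94 to 8.28), Chrna1 (5.25, against 10.83 to 11.59), Col4a1 (8.39, against 10.98 to 11.14), Mfap5 (7.40, against 10.74 to 11.35) and Igfbp2 (6.49, against 9.79 to 10.10). It was also low for Ankrd1 (7.91, against 9.35 to 9.61), Ifit1 (3.92, against 10.17 to 11.05) and Grb10 (7.51, against 11.31 to 11.55), and at the floor of 3.64 for Myod1 (the others 9.40 to 9.69) and Lyz1 (5.03 to 5.31). It was the high array for Adamts4 (8.52, against 7.45 to 7.51) and the FGF receptor Fgfr3 (7.61, against 5.73 to 5.98). The fibrous matrix list mean was 10.03 in line 176 and 11.04 to 11.23 in the other lines.

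Line 179 was low for Cavin2 (8.47, against 9.23 to 9.38) and Myc (7.66, against 8.32 to 8.40) and high for Gdf10 (6.89, against 5.15 to 5.43). In line 213 the transcription factor Cebpa was high (8.35, against 6.32 to 6.61), cyclin E1, Ccne1, was low (7.31, against 8.65 to 8.75) and Cd36 was at the floor of 3.64 (the others 4.28 to 4.35). The epithelial and skin list mean was 5.37 in line 213 and 5.796 to 5.85 in the others, and that of ribosome biogenesis 8.80 in line 182 and 8.94 to 8.95 in the others.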

How the results depend on the processing

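Of 132 named genes called, 87 kept their call and direction in all alternatives run on single genes (33 or 34 a gene) and 45 lost the call in at least 1. The number of calls, 1514, lay within 1.5 times of itself in all but 1 setting. Testing every kept probe set gave 4180 calls (1234 higher, 2946 lower) over 27308 features, more than the 12887 of the gene test. Quantile normalization gave 1519 calls and scaling to the 75th percentile 1554, with 50.6% and 48.1% higher in place of 40.2%. Leaving out 1 line gave 1361 to 1680 calls, and 1 primary tumour 1480 to 1622. With only the lines and primary tumours in the fit there were 1462. Within set C there were 1179, and 1390 there without tumour 330. Without line 176 and tumour 330 there were 1795. The tumour number as a replicate block gave 1524 calls as a fixed term, 1088 of them shared with the fit without it, and 1563 as a random term, and the own-number tumour ranked 7th, 5th and 4th of 15 in correlation for lines 176, 179 and 182. With the fixed block 25 named genes lost their call with the sign kept, among them Myod1, Myog and Chrna1. It moved the medians of 19 of the 44 lists by at least the SD of the list mean among the lines. The count called lower moved, by more than 1.5 times or to or from 0, for 11 lists and the count called higher for 7. With this fixed block Rb1 differed by 0.30, Cdkn1a by −0.0465 and Tnnc2 by −2.28, each with the sign turned, and with the random block Tnnc2 by −0.35. Rb1 also turned with array set as a block and within set C (0.00683 in each), and, as Igfbp3 did, without line 176 and tumour 330 together (0.0142 for Rb1 and 0.406 for Igfbp3). Leaving out single lines, or line 176 with tumour 330, gave ranges across 0 for Rb1 (−0.67 to 0.0846), Cdkn1a (−0.0914 to 0.91), Tnnc2 (−0.66 to 1.98), Igfbp3 (−2.09 to 0.42) and Ifi27l2a (−0.30 to 2.34). None of these 5 was called with all arrays, but Igfbp3 was called without line 179, and Ifi27l2a without line 176, with tumour 330 and without it. Cdkn2a, also not called with all arrays, was called in 5 alternatives. The cause of these changes was not tested. Values at the floor limit what can be read of low genes: 20.2% to 21.6% of probe sets lay there in the lines and 18.6% to 20.1% in the primary tumours.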
